A study of Saccharomyces cerevisiae with 18 samples.

Results

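The 60 min comparison set RNA of budding yeast in a medium without potassium against RNA of yeast in the same medium with KCl, on the 4 arrays of the series labelled 60 min, out of 18 arrays in all. Both cultures were wild-type Saccharomyces cerevisiae of strain BY4741 at 28 °C. The K-free culture was kept in Translucent medium, a synthetic medium made without potassium salts, whose residual potassium is given as about 15 µM, and its counterpart in that medium with 50 mM KCl added. At an absorbance of 0.6 (A600) each culture was spun down, washed, put back into its own medium and harvested 60 min later. The sample labels describe the K-free culture as grown without added potassium before the wash as well, whereas the series design speaks of a sudden shortage, so the length of the shortage is stated here only as the labelled 60 min. BY4741 is a mating type a strain in which LEU2, MET17 and URA3 are deleted and HIS3 is deleted in part, in both cultures. Each array carried cDNA of both cultures in different dyes. A value is the deposited log2 ratio of a gene on an array, above 0 where the K-free culture was higher. The direction follows the array titles and the base follows the range of the values, and both are likely rather than stated. The study made 2 independent experiments at this time, each hybridised again with the dyes swapped. Which arrays belong to the same experiment is not labelled: replicates 1 and 2 were taken as experiment A and replicates 3 and 4 as experiment B. Over the genes tested below that had a value on both arrays of a pair, their values correlated at r = 0.882 and 0.949, the highest of the 6 pairings of arrays.

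Potassium is the main cation inside the cell, where it sets turgor, balances charge and serves as a cofactor of ribosomes and enzymes. Yeast takes it up chiefly through the membrane transporter Trk1, driven by the proton pump Pma1. A broad stress programme of yeast raises genes for protein repair, carbohydrate stores and redox defence, many of them under the factors Msn2 and Msn4, and lowers the genes that build ribosomes.

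Of 6212 genes in the table, 4127 had a value on at least 3 of the 4 arrays and were tested. Arrays held values for 3913 to 4919 genes. Their medians lay between -0.237 (replicate 2) and 0.006 (replicate 1), and the spread across genes was wider in experiment B (SD 1.262 over tested genes) than in experiment A (SD 1.064). A limma test of the mean of both experiments against 0, with the spread between experiments shared over all times of the series and Benjamini-Hochberg adjustment over the 4127 genes, called 1892 genes at an adjusted p under 0.05, which is 45.8% of those tested. Of these, 876 (21.2%) were higher and 1016 (24.6%) lower in K-free medium, and the median over all tested genes was -0.09. At least 2-fold differences were found for 509 higher and 646 lower genes, and at least 8-fold differences for 57 and 19. Of the 1892 genes, 1862 had 1 sign on every array that measured them. Experiments A and B correlated at r = 0.848 across genes, and the SD of their difference was 0.669. Errors below are standard errors of the mean of the 2 experiments, computed from the spread between experiments over all times. They do not measure how far the 2 experiments of 60 min differed. The p-values are the limma test's adjusted p. With the 60 min arrays alone 1198 genes were called, and with experiment B left out 911. When arrays of all times were scaled to the same spread, 1122 were called. Over the 1892 genes the scaled mean was, at the median, 0.63 times the mean of the deposited values. The cause of the lower count was not tested. A ratio within an array shows a gene's change relative to the other genes, so a change in total mRNA per cell does not show.

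**Figure D1:**
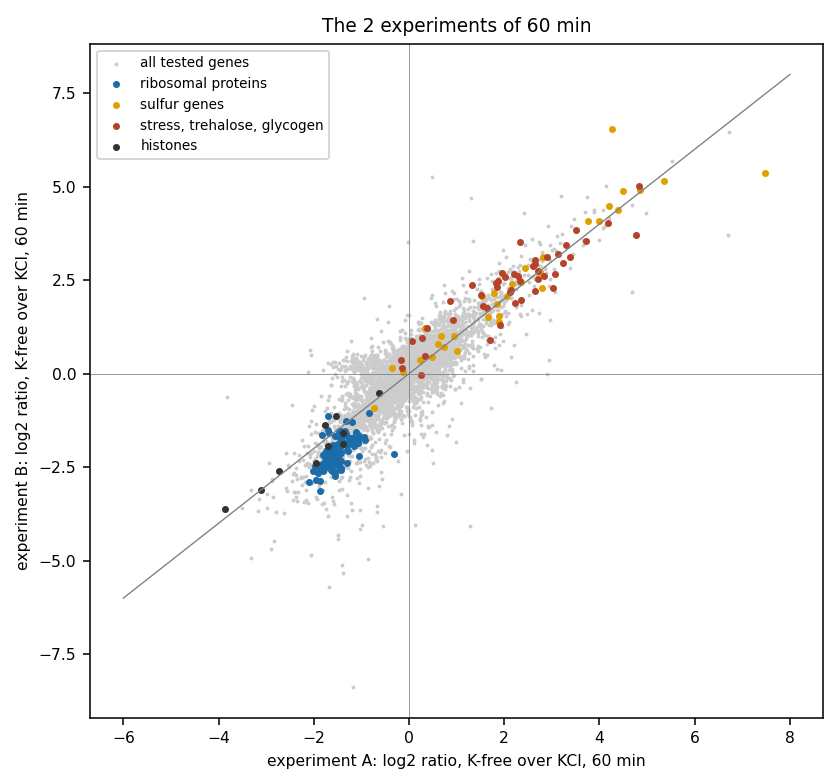
Mean log2 ratio of K-free over KCl at 60 min in experiment A (horizontal) against experiment B (vertical), 1 point per tested gene with a value in both, with the line of equal values. Ribosomal protein genes form a cloud below 0 in both experiments and lower in B, while sulfur and stress genes extend to ratios above 4 in both.

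The gene with the highest mean was GRE1, which encodes a hydrophilin, a small and very water-loving protein made under drying and osmotic stress. Its log2 ratios were 6.67, 6.80, 6.15 and 6.77 in replicates 1 to 4. All 4 arrays thus gave nearly the same value, with a mean of 6.59 ± 0.58 (96.6-fold, adjusted p = 0.000932). SUL2, a high-affinity sulfate permease, followed with 6.83, 8.13, 5.49 and 5.25, higher in experiment A than in experiment B (mean 6.42 ± 0.47, 85.9-fold). CIT2, the peroxisomal citrate synthase that is the classical reporter of signalling from mitochondria to nucleus, stood at 5.63, 5.41, 5.38 and 6.02 (mean 5.61 ± 0.26, 48.8-fold, adjusted p = 6.59e-05). The 15 highest genes measured on all arrays also included 4 more genes of sulfur assimilation, namely MET3, STR3, MET14 and MET5. NQM1 (a transaldolase, 4.92 ± 0.52), RGI1 (a protein of respiratory growth, 4.58 ± 0.61), ALD3 (a cytosolic aldehyde dehydrogenase, 4.24 ± 0.46), GCY1 (a glycerol dehydrogenase, 4.23 ± 0.36) and YRO2 (a plasma membrane protein related to Hsp30, 4.18 ± 0.19) were among them too. BOP2, a gene of unknown function, was as high on average (4.59 ± 0.72) but ranged from 3.21 to 6.15 between the arrays of experiment A. The remaining members, YBR116C (4.64 ± 0.26) and YOR121C (4.24 ± 0.44), carry no gene name in the reference. By systematic name they adjoin TKL2 and GCY1, which stood at 4.03 ± 0.46 and 4.23 ± 0.36, and whether their spots report separate transcripts was not tested.

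The 15 lowest genes among those called, measured on all 4 arrays and of 1 sign were of 3 kinds: genes of the G1 to S transition, histones, and genes of ribosome assembly and nucleotide supply. TOS6, a cell wall protein gene switched on at the G1 to S transition, gave -3.25, -3.41, -5.12 and -4.76, with both arrays of experiment B below both of A (mean -4.13 ± 0.44, 17.5-fold lower, adjusted p = 0.000995). TOS4, a chromatin-bound regulator expressed at the same stage, gave -3.55, -2.26, -4.27 and -5.13 (mean -3.80 ± 0.45). HTB2, a gene for histone H2B, was more even, at -3.65, -4.09, -3.52 and -3.72 (mean -3.75 ± 0.34, 13.4-fold lower). PCL1, a G1 cyclin of the kinase Pho85, had a mean of -3.56 ± 0.30, and the wall protein gene SVS1 one of -3.42 ± 0.33. The assembly factors of the large ribosomal subunit ALB1 (-3.65 ± 0.50), YTM1 (-3.44 ± 0.60), ECM1 (-3.36 ± 1.11), BRX1 (-3.08 ± 0.31) and MRT4 (-2.95 ± 0.80), the RNA helicase DBP2 (-3.26 ± 0.48) and the nucleolin NSR1 (-3.22 ± 0.42) were also there. URA7 (CTP synthase), IMD4 (IMP dehydrogenase) and HTA2 (histone H2A) completed the set at -3.24 ± 0.48, -3.09 ± 0.29 and -3.11 ± 0.31. ECM1 rested on replicate 4 at -7.13 and was not called without that array (-2.46, adjusted p = 0.0664), and MRT4 was -1.30 and -1.68 in experiment A against -4.11 and -4.71 in B. Neither ECM1 nor MRT4 was called without experiment B (-1.38, adjusted p = 0.427, and -1.49, adjusted p = 0.237) or from the 60 min arrays alone (adjusted p = 0.0875 and 0.0638). YTM1 was still called without experiment B, at -2.05.

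**Figure D2:**
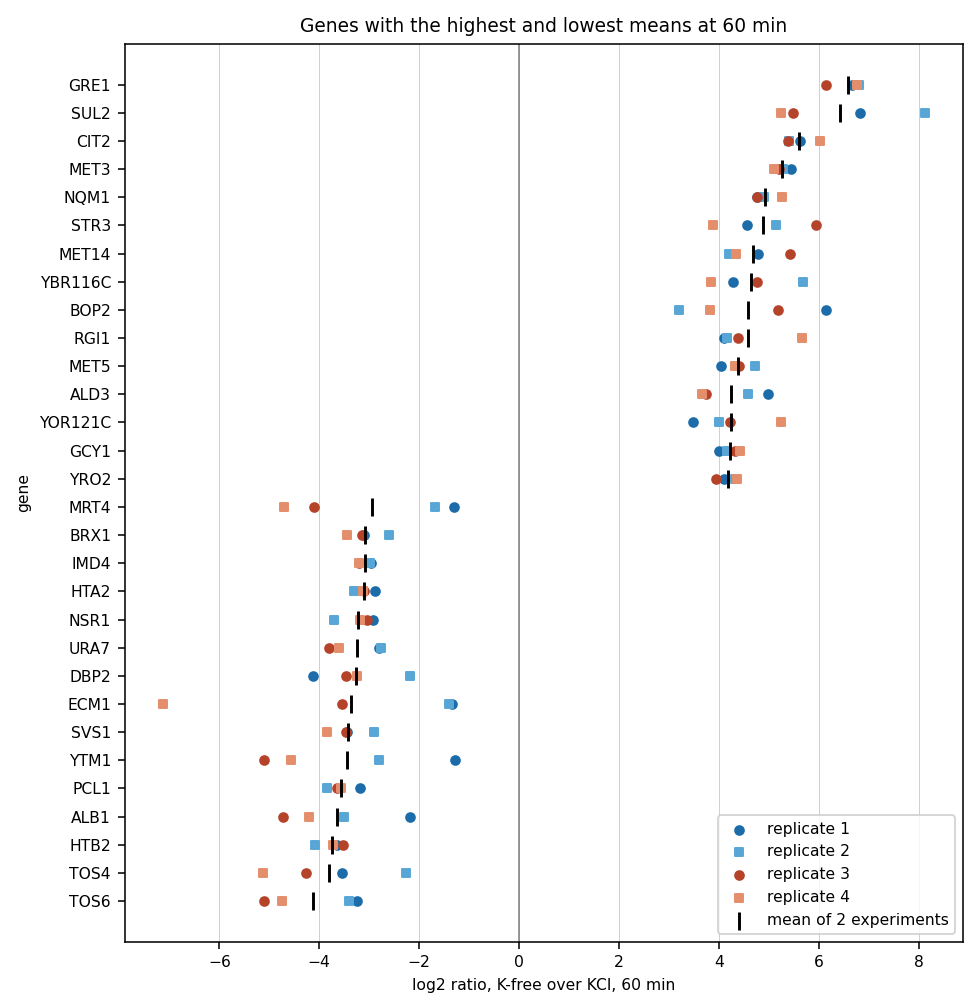
Log2 ratio of K-free over KCl on each 60 min array for the 15 genes with the highest and the 15 with the lowest means among genes called, measured on all 4 arrays and of the same sign on each. Points are arrays, coloured by experiment (blue A, red B), and bars the means; GRE1 sits at 6.15 to 6.80, while ECM1 and MRT4 spread widely between experiments.

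Genes that bring sulfate into the cell and reduce it had the highest median of the 53 gene lists compared. The lists were chosen with earlier results of these data known, so the ranking describes these lists and supports nothing beyond them. Of 10 tested genes of sulfate uptake and reduction, 9 were higher and none lower, with a median of 4.19, against 21.2% higher and a median of -0.09 over all tested genes. The list median was 4.12, 3.93, 4.35 and 4.17 on the 4 arrays. Along the route, ATP sulfurylase MET3 gave 5.45, 5.28, 5.21 and 5.10 (mean 5.26 ± 0.26, 38.3-fold, adjusted p = 7.79e-05), which hardly differed between arrays. The adenylylsulfate kinase MET14 stood at 4.69 ± 0.27 and the sulfite reductase subunit MET5 at 4.38 ± 0.16, with 4.04, 4.72, 4.41 and 4.33 on the arrays. MET1, which makes the siroheme cofactor of that enzyme, stood at 4.34 ± 0.21 over 3 arrays. MET17, the next enzyme of the route, is deleted in the strain and had no value on any array.

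Lists downstream of this route and around it had smaller medians, with most genes above 0. Of 15 tested genes of methionine and cysteine synthesis 11 were higher and 1 lower (median 1.59). STR3, the cystathionine beta-lyase, was the highest at 4.88 ± 0.25, and its arrays ranged from 3.88 to 5.94, both in experiment B. MHT1, which makes methionine from S-methylmethionine (2.97 ± 0.32), the methionine synthase MET6 (2.55 ± 0.26), the methylenetetrahydrofolate reductase MET13 (2.07 ± 0.17) and the homoserine acetyltransferase MET2 (1.97 ± 0.19) followed. SAH1, which hydrolyses S-adenosylhomocysteine, fell by 0.82 on the log2 scale (adjusted p = 0.0202). All 8 tested permeases and peptidases for sulfur compounds were higher (median 2.07). Among them the low-affinity methionine permease MUP3 gave 4.27, 6.92 and 6.18 in replicates 1, 3 and 4 (mean 5.41 ± 0.50, 42.6-fold). The S-methylmethionine permease MMP1 (2.73 ± 0.22), the cysteine transporter YCT1 (2.40 ± 0.22), the S-adenosylmethionine permease SAM3 (2.28 ± 0.16) and the amino acid permease AGP3 (1.85 ± 0.27) had smaller ratios than MUP3. Of the pathway's regulators, 3 of 3 tested were higher: MET32, a DNA-binding factor (2.53 ± 0.27), MET30, the F-box protein that restrains the activator (1.75 ± 0.18), and the activator MET4 itself (0.80 ± 0.19). MET4 was not called without experiment B (0.63, adjusted p = 0.138) nor from the 60 min arrays alone (adjusted p = 0.0608), and SAH1 was not called without experiment A (adjusted p = 0.0737), without B (adjusted p = 0.144) or from 60 min alone (adjusted p = 0.0509).

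Phosphate genes were higher in part. Of 9 tested genes of phosphate uptake and phosphatases 5 (55.6%, beside 21.2% of all tested genes) were higher and none lower (median 1.34). The secreted acid phosphatase PHO5 gave 2.09, 2.21, 2.70 and 2.43 (mean 2.36 ± 0.34, 5.12-fold, adjusted p = 0.00207). PHO84, the high-affinity phosphate transporter, gave 1.49, 0.86, 1.66 and 1.35 (mean 1.34 ± 0.17, 2.53-fold), lowest in replicate 2, and it was not called with arrays scaled to the same spread (0.88, adjusted p = 0.0618). The vacuolar alkaline phosphatase PHO8 (1.86 ± 0.20) and the acid phosphatases PHO12 (1.80 ± 0.19) and PHO11 (1.67 ± 0.21) lay between them; PHO11 and PHO12 are near-identical genes whose spots may share signal. Of 13 genes of polyphosphate storage and phosphate regulation 6 (46.2%) were higher (median 0.44), and 3 were called without experiment B. These included PHM7, a membrane protein gene of the phosphate regulon (2.18 ± 0.26), PHO81, the inhibitor of the Pho80 and Pho85 kinase (1.12 ± 0.17), and VTC3, a subunit of the polyphosphate polymerase (1.08 ± 0.18). Its partner VTC1 (0.75 ± 0.25, adjusted p = 0.044) and the regulator PHO2 (0.69 ± 0.21) were called as well. VTC1 was not called without experiment A (0.91, adjusted p = 0.099), without B (0.59, adjusted p = 0.259) or without replicate 1 or 3 (adjusted p = 0.0902 and 0.0629). PHO2 was called without experiment A (1.05, adjusted p = 0.0189) and not without B (0.34, adjusted p = 0.318), and neither gene was called from 60 min alone (adjusted p = 0.0663 and 0.127).

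Genes that carry potassium and sodium showed no call in either direction. Of 13 such genes 7 were tested, with a median of -0.05, which became 0.01 when arrays were centred on their medians. TRK1, the main potassium importer, gave -0.05, 0.43, 0.07 and -0.23, on both sides of 0 (mean 0.06, 95% interval -0.40 to 0.51). TRK2, its lesser relative, stood at 0.26 ± 0.25, and the outward potassium channel TOK1 at -0.40 ± 0.17 (adjusted p = 0.0916); TOK1 passed the threshold when replicate 1 was left out (-0.56, adjusted p = 0.0431). ENA2, a sodium pump gene, stood at -0.64 ± 0.28 (adjusted p = 0.104), and the sodium pump ENA1 and the antiporter NHA1 had no value on any 60 min array. In contrast, 7 (58.3%) of 12 tested genes of the proton pump and of transport regulation were higher and none lower (median 1.02). Of all tested genes 21.2% were higher. VHS3, an inhibitory subunit of the phosphatase Ppz1, gave 2.22, 2.27, 2.20 and 2.31 (mean 2.25 ± 0.23, 4.75-fold, adjusted p = 0.00093), nearly equal on all arrays. PTK2, a kinase that activates Pma1, stood at 2.19, 1.75, 1.95 and 2.10 (mean 2.00 ± 0.24, 3.99-fold). The phosphatase regulator YPI1 (1.79 ± 0.20), the phosphatase PPZ2 (1.59 ± 0.23) and HAL5, a kinase that stabilises Trk transporters at the membrane (1.29 ± 0.19), were higher as well. PMA1, the proton pump, gave 1.39 and 1.29 in experiment A but 0.19 and 0.28 in experiment B. Its mean of 0.79 ± 0.27 was just past the threshold (adjusted p = 0.0481). It was called without experiment B (1.34, adjusted p = 0.023), and it was not called without experiment A (0.23, adjusted p = 0.536), without replicate 4 (0.77, adjusted p = 0.0579) or from 60 min alone (adjusted p = 0.163). Of 14 tested genes of the V-ATPase, the acidifier of the vacuole, 5 (35.7%, beside 24.6% of all tested genes) were lower and none higher (median -0.40). Among these were its assembly factors PKR1 (-1.34 ± 0.18) and VMA21 (-1.19 ± 0.34) and the proteolipid subunits VMA11 (-0.94 ± 0.17) and VMA3 (-0.84 ± 0.18). Of the 14, 3 were called from 60 min alone and only 1 without experiment B.

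Genes that the factors Msn2 and Msn4 are known to raise were higher as a group. Of 29 tested, 23 were higher and none lower, with a median of 2.18 and list medians of 2.30, 2.06, 2.50 and 2.44 on the 4 arrays. Besides NQM1 and ALD3, the highest were the small heat shock protein HSP26, with 4.60, 3.78, 4.04 and 4.02 (mean 4.11 ± 0.65, 17.3-fold), RTC3 (3.67 ± 0.48) and the wall protein SPI1 (3.26 ± 0.24). HSP26 was not called with arrays scaled to the same spread (2.60, adjusted p = 0.0764). HSP12, a membrane-protecting protein often used to follow this programme, was lower than these, at 2.02, 1.39, 0.66 and 1.15. Its mean of 1.31 ± 0.70 did not pass the threshold with the spread shared over all times (adjusted p = 0.166) and passed it with the 60 min arrays alone (adjusted p = 0.0433).

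Carbohydrate stores belong to the same programme, and their genes for making and for breaking down the stores were both higher. Of 10 tested trehalose genes 9 were higher (median 2.53). The phosphoglucomutase PGM2 gave 3.82, 3.61, 2.93 and 4.16 (mean 3.63 ± 0.54, 12.4-fold, adjusted p = 0.00237). The trehalose synthase subunits TSL1 (2.79 ± 0.46), TPS1 (2.73 ± 0.40) and TPS2 (2.72 ± 0.34) and the UDP-glucose pyrophosphorylase UGP1 (2.63 ± 0.35) stood close together. With arrays scaled to the same spread, PGM2 (adjusted p = 0.0524) and TSL1 (adjusted p = 0.0572) were just not called, and 7 of the 10 genes were. Of 8 tested glycogen genes 7 were higher (median 2.31). GLC3, the branching enzyme, gave 3.08, 3.50, 2.87 and 4.01 (mean 3.37 ± 0.35), the debranching enzyme GDB1 stood at 2.84 ± 0.37 and the synthase GSY2 at 2.30 ± 0.29. The phosphatase targeting subunits PIG2 (2.66 ± 0.30) and GIP2 (2.32 ± 0.67) were higher too; GIP2 lost its call when experiment A (adjusted p = 0.0749) or B (adjusted p = 0.178) was left out. Of 11 glycerol genes 5 (45.5%, beside 21.2% of all tested genes) were higher and none lower (median 0.74). After GCY1 came the dihydroxyacetone kinase DAK1 (2.32 ± 0.20), the glycerol-3-phosphate dehydrogenase GPD1 with 1.81, 1.07, 1.36 and 1.50 (mean 1.44 ± 0.26), the aldo-keto reductase YPR1 (1.17 ± 0.17) and the glycerol phosphatase GPP2 (0.84 ± 0.22). GPP2 lost its call when either experiment was left out (adjusted p = 0.0665 and 0.125), and GPP2 and GPD1 were not called with arrays scaled (adjusted p = 0.0598 and 0.0541).

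Hydrophilins, a class defined by composition and not by a common task, divided. Of 7, all tested, 3 were higher (GRE1, SIP18 and STF2) and 3 lower (GON7, NOP6 and RPL42A). SIP18, a phospholipid-binding relative of Gre1, had no value in replicate 1 and gave 6.69, 3.40 and 4.02 on the others, so that experiments A and B differed widely (mean 5.20 ± 0.75, 36.8-fold). STF2, known for tolerance to drying, stood at 2.90 ± 0.31. The lower members were GON7, a subunit of the tRNA-modifying KEOPS complex (-1.31 ± 0.20), NOP6, a factor of ribosome assembly (-1.99 ± 0.33), and the ribosomal protein RPL42A (-1.99 ± 0.25).

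Chaperone genes were higher in part: 12 of 22 tested (54.5%) were higher and 1 (4.55%) was lower (median 0.71). These shares stand beside 21.2% and 24.6% of all tested genes. The Hsp70 gene SSA4, induced by stress, gave 2.90, 4.49, 3.96 and 4.71 (mean 4.02 ± 0.31, 16.2-fold). HSP30, a membrane protein that restrains Pma1, gave 4.06, 2.31, 4.98 and 4.51 (mean 3.97 ± 0.60), lowest in replicate 2. The disaggregase HSP104 (3.32 ± 0.30), the Hsp110 gene SSE2 (3.18 ± 0.32) and the mitochondrial disaggregase HSP78 (2.82 ± 0.35) followed. SSB2, an Hsp70 that works at the ribosome, was the lower member at -0.87, -1.46, -2.08 and -1.88 (mean -1.57 ± 0.35), and it was not called without experiment B (-1.17, adjusted p = 0.112).

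Protein breakdown genes were higher by small but widespread amounts. Of 30 tested proteasome genes 18 were higher and 2 lower, with a median of only 0.63 and no member above 1.14. The largest were the lid subunit RPN5 at 0.84, 0.92, 1.34 and 1.48 (mean 1.14 ± 0.20, 2.21-fold) and the ATPases RPT4 (1.09 ± 0.19), RPT1 (1.07 ± 0.19) and RPT3 (1.03 ± 0.15). The core particle subunits SCL1 (-0.85 ± 0.16) and PRE3 (-0.54 ± 0.17) were lower; PRE3 lost its call without replicate 2 (adjusted p = 0.221) and without replicate 4 (adjusted p = 0.0791). Of the 30, 6 were called higher from 60 min alone, 15 without experiment A and 5 without experiment B, and the cause of these lower counts was not tested. Of 22 ubiquitin and autophagy genes 15 were higher and none lower (median 1.14). ATG8, the ubiquitin-like protein of the autophagosome, gave 3.71, 3.22, 3.75 and 4.54 (mean 3.80 ± 0.60). The autophagy kinase ATG1 and the vacuolar aminopeptidase APE1 both stood at 2.57 (SE 0.25 and 0.26), polyubiquitin UBI4 at 2.40 ± 0.24 and the vacuolar protease PRB1 at 2.37 ± 0.27.

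Redox genes were higher in part. Of 19 tested genes of thioredoxins, glutaredoxins and peroxiredoxins 7 were higher and 2 lower (median 0.47). The peroxiredoxins TSA2 (2.82 ± 0.24) and PRX1 (2.08 ± 0.26), the mitochondrial thioredoxin reductase TRR2 (1.61 ± 0.18) and the glutaredoxin GRX1 (1.50 ± 0.18) led the list. GRX4, a glutaredoxin of iron signalling (-1.11 ± 0.19), and the cytosolic thioredoxin TRX1 (-1.05 ± 0.30) were lower, TRX1 only with replicate 2 and both experiments in the fit (adjusted p = 0.0884, 0.0516 and 0.224 without replicate 2, experiment A and experiment B). Of 10 genes of glutathione, superoxide dismutase and catalase 4 (40.0%) were higher and 1 (10.0%) lower (median 0.51). CTT1, the cytosolic catalase, gave 3.66, 2.81, 2.62 and 3.33 (mean 3.10 ± 0.29, 8.59-fold). The mitochondrial superoxide dismutase SOD2 stood at 1.26 ± 0.24. GSH1, which starts glutathione synthesis, stood at 1.50 ± 0.31 over 3 arrays and was not called without experiment B (1.00, adjusted p = 0.0965).

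In central carbon metabolism the higher genes included several minor isozymes, while glycolysis itself gave few calls. Of 14 tested genes of the retrograde response, by which mitochondria signal to the nucleus, 9 (64.3%) were higher and 1 (7.14%) lower (median 0.63). These shares stand beside 21.2% and 24.6% of all tested genes. With experiment B left out, 5 of the 14 were called higher. After CIT2 came the cytosolic lactate dehydrogenase DLD3 with 3.03, 2.90, 3.17 and 2.92 (mean 3.01 ± 0.30, 8.03-fold, not called with arrays scaled, adjusted p = 0.0612), pyruvate carboxylase PYC1 (2.59 ± 0.25), the mitochondrial citrate synthase CIT1 (1.99 ± 0.20) and the isocitrate dehydrogenase subunit IDH2 (1.48 ± 0.21). Of 12 genes of the citrate and glyoxylate cycles 4 (33.3%, beside 21.2% of all tested genes) were higher (median 0.51). Among them were the malate dehydrogenase MDH1 (1.62 ± 0.25) and the succinate dehydrogenase subunit SDH4 (1.60 ± 0.24). PCK1, the enzyme that starts glucose synthesis, was 2.54 and 3.27 in experiment A but -0.01 in replicate 3, and its mean of 1.45 ± 1.35 was not called. Of 29 genes of the respiratory chain and ATP synthase 11 (37.9%) were higher and none lower (median 0.52), and 5 were called without experiment B. The NADH dehydrogenase NDI1 gave 2.14, 2.06, 1.98 and 2.33 (mean 2.13 ± 0.32), the cytochrome c isoform CYC7 stood at 2.00 ± 0.40, the outer NADH dehydrogenase NDE2 at 1.56 ± 0.23 and the complex III subunits QCR8 and RIP1 at 1.33 ± 0.24 and 1.07 ± 0.17. CYC7 and QCR8 were not called without experiment B (adjusted p = 0.0848 and 0.0545).

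Of 13 tested glycolytic genes 2 (15.4%, beside 21.2% of all tested genes) were higher and none lower (median 0.12). These were PYK2, a minor pyruvate kinase, with 2.96, 2.22 and 1.69 on 3 arrays (mean 2.14 ± 0.31), and GPM2, a homologue of phosphoglycerate mutase (0.77 ± 0.21). The abundant enzymes PGK1 (0.32 ± 0.20), GPM1 (0.33 ± 0.19) and ENO2 (0.20 ± 0.16) did not pass the threshold. GPM2 was not called without experiment B (0.40, adjusted p = 0.246) or from 60 min alone (adjusted p = 0.109). Of 17 genes of hexose transport and phosphorylation 6 were higher and 1 lower (median 0.28), 35.3% and 5.88% beside 21.2% and 24.6% of all tested genes. The transporter HXT5, known from slow growth and starvation, gave 3.56, 3.76, 2.95 and 3.94 (mean 3.55 ± 0.49, 11.7-fold). The hexokinase HXK1 (3.02 ± 0.61) and the glucokinase GLK1 (2.79 ± 0.47) and its relative EMI2 (1.86 ± 0.30) were higher, whereas HXT2, a high-affinity glucose transporter, gave -2.93, -2.63 and -2.15 on 3 arrays (mean -2.66 ± 0.47, 6.32-fold lower). HXT4 (1.48 ± 0.44) was not called when either experiment was left out (adjusted p = 0.0569 and 0.228), and HXK1 not without experiment B (adjusted p = 0.0676). Of 16 genes of pyruvate, ethanol and acetate metabolism 5 were higher (median 0.25), 31.2% beside 21.2% of all tested genes. They were the aldehyde dehydrogenases ALD3, ALD2 (3.79 ± 0.39) and ALD4 (1.71 ± 0.17), the minor pyruvate decarboxylase PDC6 and the alcohol dehydrogenase ADH5. ALD2 and ALD3 are near-identical neighbours whose spots may share signal. PDC6 gave 0.75 and 1.84 in experiment A against 4.38 and 5.01 in B (mean 2.99 ± 0.73), and without experiment B neither it (1.29, adjusted p = 0.12) nor ADH5 (0.90, adjusted p = 0.26) was called.

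The pentose phosphate pathway divided between isozymes. Of its 12 genes, all tested, 5 (41.7%) were higher and 4 (33.3%) lower (median -0.11), beside 21.2% and 24.6% of all tested genes. NQM1 gave 4.76, 4.90, 4.76 and 5.26, and the transketolase TKL2 3.97, 4.24, 3.85 and 4.05 (mean 4.03 ± 0.46, 16.3-fold), both with little spread between arrays. The lactonase SOL4 (2.75 ± 0.48), the dehydrogenase GND2 (2.52 ± 0.23) and the entry enzyme ZWF1 (1.90 ± 0.21) were higher too, SOL4 not with arrays scaled (adjusted p = 0.0791). The isomerase RKI1 gave -1.86, -2.48, -3.05 and -3.18 (mean -2.64 ± 0.36, 6.24-fold lower), and the epimerase RPE1 stood at -2.03 ± 0.27.

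This division was followed over 24 pairs of related genes, chosen after values had been seen, so the counts describe these pairs and support nothing beyond them. The gene named first was above its partner on every array in 22 pairs. In 12 pairs the first was called higher while the second was not called, in 5 the calls were opposite, and in 6 both were called higher. NQM1 stood at 4.92 ± 0.52 beside -0.57 ± 0.20 for the main transaldolase TAL1, which was just past the threshold as lower (adjusted p = 0.0488), and on single arrays it lay 4.95 to 5.82 above it. TKL2 (4.03) stood beside TKL1 (-0.13), SOL4 (2.75) beside SOL3 (-0.09), GND2 (2.52) beside GND1 (-0.12), HXK1 (3.02) beside HXK2 (0.04), PYK2 (2.14) beside CDC19 (0.13) and PGM2 (3.63) beside PGM1 (0.12). In the 6 pairs from TKL2 to PGM2 the partner, usually the enzyme of fast growth on glucose, did not pass the threshold. The other opposite calls were found outside carbon metabolism: the CTP synthase URA8 was 1.37 ± 0.21 against -3.24 ± 0.48 for URA7, and the orotate phosphoribosyltransferase URA10 was 1.28 ± 0.28 against -1.11 ± 0.19 for URA5. The glycine-tRNA ligase GRS2 was 1.32 ± 0.24 against -0.94 ± 0.21 for GRS1, and the wall protein PIR3 3.10 ± 0.37 against -2.17 ± 0.18 for PIR1. The exceptions to the order were GSY1 with GSY2 and NTH1 with NTH2. Without experiment B, URA10 (0.96, adjusted p = 0.107), GRS2 (0.95, adjusted p = 0.0585) and GRS1 (-0.84, adjusted p = 0.0982) were not called.

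**Figure D3:**
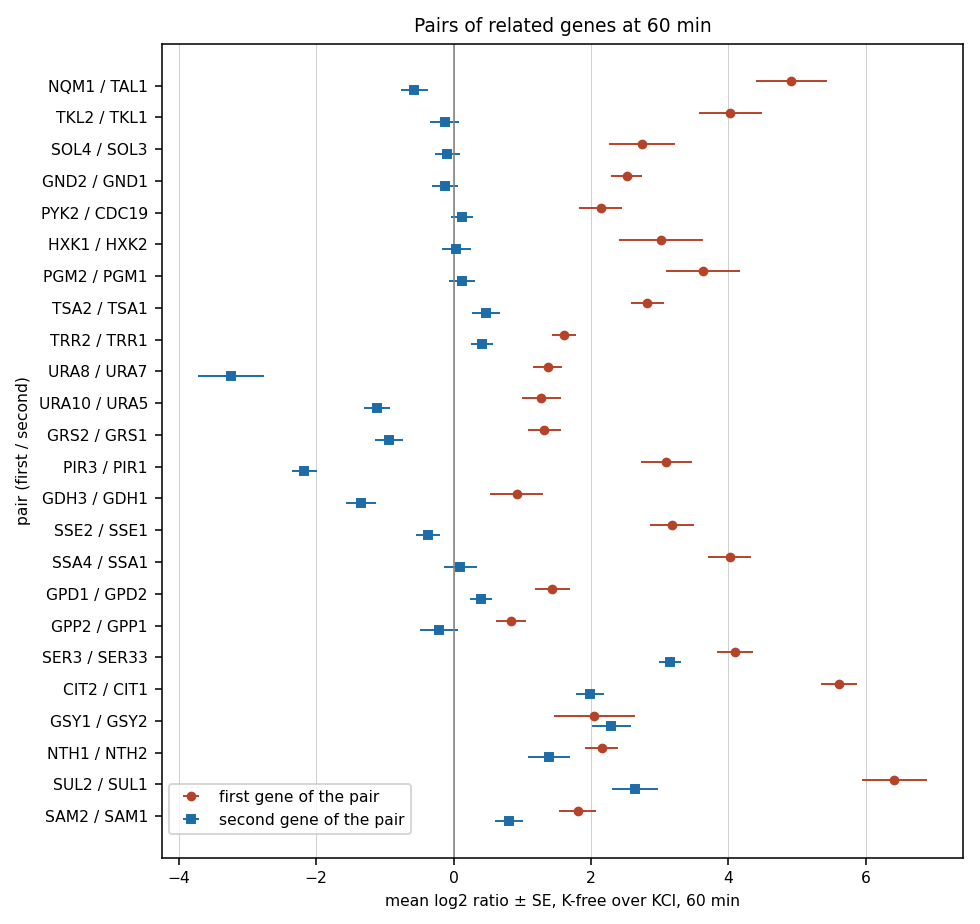
Mean log2 ratio of K-free over KCl at 60 min with its standard error for both genes of 24 pairs of related genes (circles, the gene named first; squares, its partner). The circle lies to the right of the square in all but GSY1 and GSY2, with the widest gap for NQM1 (4.92) and TAL1 (-0.57).

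Every tested gene for a protein of the cytosolic ribosome was lower. These were 72 genes of the large subunit, of 78 in the table, from -2.39 to -0.94, and 48 of the small subunit, of 55 in the table, from -2.50 to -1.23. Each list had a median of -1.85, against 24.6% lower and a median of -0.09 over all tested genes. RPL9A gave -1.70, -2.19, -2.93 and -2.73 (mean -2.39 ± 0.41, 5.23-fold lower). RPS22A gave -1.78, -2.44, -2.91 and -2.88 (mean -2.50 ± 0.41, 5.66-fold lower, adjusted p = 0.00332). On the arrays in turn the large subunit's median was -1.13, -1.94, -2.11 and -2.12, and the small subunit's -1.14, -1.88, -2.13 and -2.09, so that replicate 1 stood above the other arrays, its dye swap included. Counts rested partly on experiment B: without it 48 of the 72 and 20 of the 48 were called, at medians of -1.56 and -1.57, and with arrays scaled to the same spread 71 and 47 were. Many of these genes exist as near-identical pairs, and spots of such pairs may share signal.

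The factors that assemble ribosomes were lower over a wider range. Of 48 tested genes of the small subunit processome and 40S assembly 40 were lower and 1 higher (median -1.60), and of 54 genes of 60S assembly 48 were lower and 1 higher (median -1.85). After NSR1 came LTV1, an export factor of the 40S subunit, with -2.47, -2.39, -3.29 and -3.44 (mean -2.90 ± 0.45), ENP2 (-2.82 ± 0.41) and UTP23 (-2.75 ± 0.34), both of the processome. ECM16, a helicase of the processome, gave -1.81, -0.99 and -5.11 on 3 arrays (mean -3.25 ± 0.77), and without replicate 3 it was -1.40. From 60 min alone it was not called (adjusted p = 0.0819). The higher members were NOP1, the fibrillarin methyltransferase, and DBP7, a helicase. NOP1 gave 2.64, 1.17, 2.10 and 2.04 (mean 1.99 ± 0.31, 3.97-fold, adjusted p = 0.00271), above 0 on every array. DBP7 stood at 0.84 ± 0.19 over 3 arrays and was not called without experiment A (adjusted p = 0.05) or B (adjusted p = 0.0972). Without experiment B, 22 of the 48 and 31 of the 54 were called lower.

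Lists around the ribosome had medians nearer to 0 than the ribosomal protein lists. Of 18 tested genes of RNA polymerases I and III 12 were lower and none higher (median -0.88), led by the polymerase I subunits RPA34 (-2.83 ± 0.40), RPA12 (-2.63 ± 0.34), RPA43 (-2.45 ± 0.37) and RPA135 (-2.37 ± 0.32) and the polymerase III subunit RPC25 (-2.31 ± 0.26). RPA12 gave -1.77, -2.16, -2.95 and -3.64, lower in experiment B. Of 41 translation factors 29 were lower and none higher (median -0.84). The elongation factor YEF3 gave -1.22, -1.54, -2.42 and -2.03 (mean -1.80 ± 0.38, 3.49-fold lower), and the initiation helicase DED1 (-1.43 ± 0.41), the elongation factor TEF4 (-1.39 ± 0.31) and the initiation factor GCD11 (-1.28 ± 0.25) followed. The count was 13 without experiment A and 8 without B, and of the 4 factors named GCD11 alone stayed called in both cases. Of 18 aminoacyl-tRNA synthetases 9 were lower and 1, GRS2, higher (median -0.67), with the proline enzyme YHR020W lowest at -1.33 ± 0.20. Mitochondrial ribosomal proteins gave few calls: of 51 tested 8 were lower and 2 higher, shares of 15.7% and 3.92% beside 24.6% and 21.2% of all tested genes, and the median was -0.06 (0.01 with arrays centred). None of the 51 was called from 60 min alone. Among 8 tested regulators of ribosomal gene transcription, RAP1, which binds the promoters of ribosomal protein genes, gave -1.58, -1.85, -2.08 and -1.87 (mean -1.84 ± 0.25, adjusted p = 0.00171). The activator SFP1 stood at -0.15 ± 0.17 and the repressor DOT6 at 0.48 ± 0.19, neither past the threshold. STB3, a repressor of ribosome assembly genes, stood at 0.49 ± 0.15 (adjusted p = 0.0351) and was called neither from 60 min alone (adjusted p = 0.134) nor without replicate 1 (adjusted p = 0.17).

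**Figure D4:**
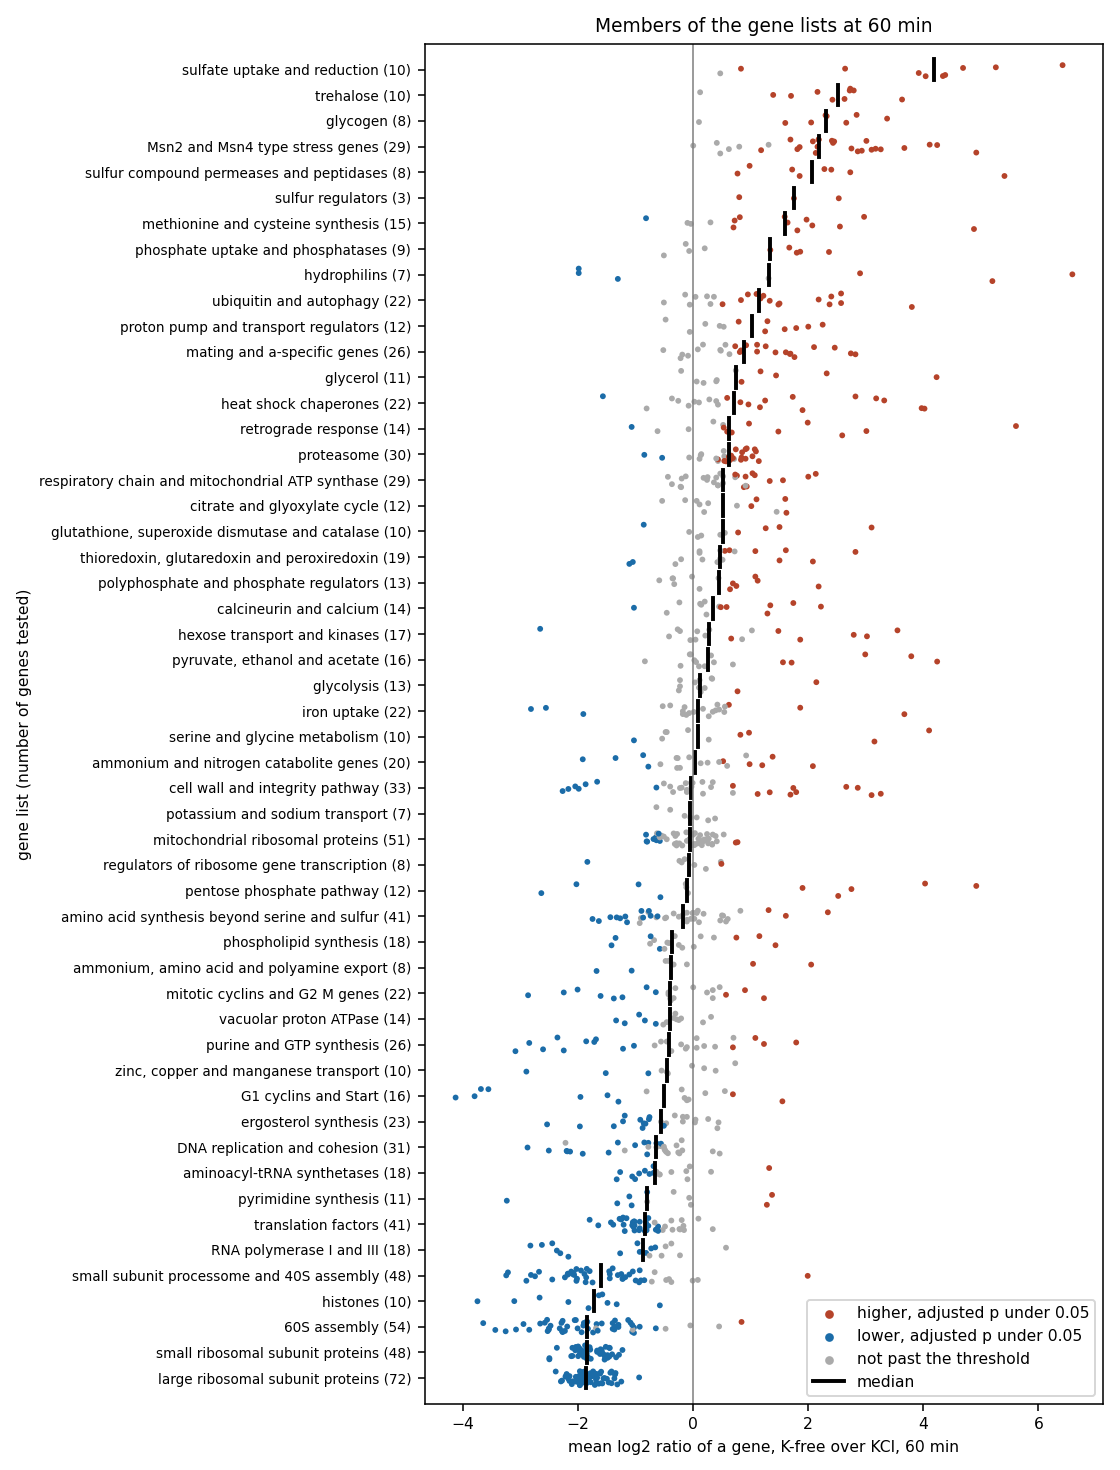
Mean log2 ratio of K-free over KCl at 60 min for each tested member of the gene lists (number tested in parentheses), coloured by the limma call, with the list median as a bar. Sulfate uptake and reduction lies at the top (median 4.19). The ribosomal protein lists, with every member called lower, share the lowest median (-1.85) with 60S assembly, where 48 of 54 were lower and 1 higher.

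Nucleotide genes were lower at the branch that makes guanine nucleotides. Of 26 genes of purine and GTP synthesis, all tested, 10 (38.5%) were lower and 4 (15.4%) higher (median -0.42). These shares stand beside 24.6% and 21.2% of all tested genes. The IMP dehydrogenase genes were lowest: IMD4 gave -2.97, -2.98, -3.21 and -3.21 (mean -3.09 ± 0.29, 8.53-fold lower, adjusted p = 0.000716), and IMD3 (-2.85 ± 0.31) and IMD2 (-2.61 ± 0.33) followed. These genes are similar in sequence and their spots may share signal. HPT1, which salvages guanine and hypoxanthine (-2.36 ± 0.27), and the GMP synthase GUA1 (-2.25 ± 0.30) were next. ADE3, the folate enzyme that also feeds purine synthesis, was higher at 1.92, 1.64, 1.86 and 1.76 (mean 1.79 ± 0.16), as was ADE12, which commits IMP to adenine nucleotides (1.23 ± 0.24, not called without experiment B, adjusted p = 0.079). Of 11 pyrimidine genes 5 (45.5%) were lower and 2 (18.2%) higher (median -0.80). URA7 gave -2.81, -2.76, -3.80 and -3.61 (9.47-fold lower), the salvage enzyme FUR1 stood at -1.32 ± 0.27 and the dihydroorotate dehydrogenase URA1 at -1.07 ± 0.28; FUR1 and URA1 were not called without experiment A (adjusted p = 0.0771 and 0.196).

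All 10 histone genes were tested and lower, from -3.75 to -0.58 with a median of -1.73, and 9 of them were called when either experiment was left out. HTA2, beside HTB2 in the genome, gave -2.89, -3.31, -3.11 and -3.12 (8.62-fold lower), and the H4 genes HHF1 and HHF2 stood at -2.67 ± 0.22 and -2.17 ± 0.19. HTB1 was -1.39 in replicate 1 and between -2.03 and -1.93 on the other arrays (mean -1.82 ± 0.22). Histone messages of yeast carry a poly(A) tail and were primed with oligo(dT) like the others, and paralogues such as HHF1 and HHF2 may share signal.

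Of 16 tested genes of G1 cyclins and Start, the point of commitment to division, 7 (43.8%) were lower and 2 (12.5%) higher (median -0.50). For this list and the next 2, the shares of all tested genes were 24.6% lower and 21.2% higher. CLN2, a G1 cyclin, gave -1.84, -1.80, -2.21 and -1.98 (mean -1.96 ± 0.24, 3.89-fold lower, adjusted p = 0.0015). YOX1, a repressor of the M to G1 interval, gave -1.67, -4.29 and -7.12 on 3 arrays, widely apart (mean -3.69 ± 0.81), and without replicate 1 it was -5.71. It was not called from 60 min alone (adjusted p = 0.0753). CLN3, the upstream cyclin of Start, was higher instead, at 2.03, 1.39, 1.34 and 1.46 (mean 1.55 ± 0.19, 2.94-fold, adjusted p = 0.00144), and so was BCK2, which acts beside it (0.69 ± 0.22, not called from 60 min alone, adjusted p = 0.0727). Of 31 genes of DNA replication and cohesion 14 (45.2%) were lower and none higher (median -0.64). The cohesin subunit MCD1 (-2.88 ± 0.35), the single-strand binding subunit RFA3 with -1.99, -2.53, -2.70 and -2.84 (mean -2.51 ± 0.19) and the flap nuclease RAD27 (-2.20 ± 0.47, not called without experiment B, adjusted p = 0.0987) were lowest. RNR1, the ribonucleotide reductase subunit that peaks at S phase, gave -3.90, -3.73 and -3.02 in replicates 1 to 3 but 1.77 in replicate 4. Its mean of -2.22 ± 0.85 was not called (adjusted p = 0.0673), and without replicate 4 it was -3.42 (adjusted p = 0.00484). Without experiment B, 4 of the 31 genes were called lower and 1 higher. Of 22 genes of mitotic cyclins and G2 to M 8 (36.4%) were lower and 3 (13.6%) higher (median -0.39). GIN4, a kinase of the bud neck, gave -3.06, -2.68, -2.61 and -3.14 (mean -2.87 ± 0.29, 7.32-fold lower), the forkhead factor FKH1 stood at -2.25 ± 0.33, the mitotic inhibitor SWE1 at -2.01 ± 0.28 and the cyclin CLB1 at -1.38 ± 0.24. DBF2, a kinase of mitotic exit (1.23 ± 0.19), and CDC20, an activator of the anaphase-promoting complex (0.90 ± 0.17), were higher, CDC20 not without experiment A (adjusted p = 0.0558).

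Genes of mating and of a cells were higher in part. Of 26 tested 16 were higher and none lower (median 0.88), against 21.2% over all genes, and 9 were called without experiment B. ASG7, an a-specific regulator of the pheromone pathway, gave 3.18, 2.53, 3.08 and 2.51 (mean 2.82 ± 0.26, 7.08-fold, adjusted p = 0.000716). The agglutinin anchor AGA1 (2.74 ± 0.25), the fusion protein FUS1 with 2.44, 2.21, 2.91 and 2.28 (mean 2.46 ± 0.21), the adhesin FIG2 (2.10 ± 0.38) and the factor KAR4 (1.76 ± 0.19) followed. FUS1, AGA1, FIG2 and KAR4 are known as genes that pheromone signalling raises.

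Ergosterol genes were lower or not called. Of 23 tested 12 (52.2%, beside 24.6% of all tested genes) were lower and none higher (median -0.56). The desaturase ERG3 gave -2.03, -2.82, -2.46 and -2.85 (mean -2.54 ± 0.22, 5.81-fold lower, adjusted p = 0.000679), the methyl oxidase ERG25 stood at -1.97 ± 0.18, and the late enzymes ERG4 and ERG2 at -1.38 ± 0.23 and -1.22 ± 0.16. The squalene epoxidase ERG1 was -1.19 ± 0.22, with arrays from -1.30 to -1.10. Without experiment B, 6 of the 23 were called. Of 18 phospholipid genes 4 were lower and 3 higher (median -0.37), close to the shares over all tested genes (22.2% and 16.7% beside 24.6% and 21.2%). The choline and ethanolamine transporter HNM1 (-1.42 ± 0.19) and the fatty acid desaturase OLE1 (-1.35 ± 0.31) were lowest. None of the 18 was called with arrays scaled to the same spread, and OLE1 was not called without experiment B (adjusted p = 0.0979). The methyltransferase OPI3 gave 1.97, 1.21 and 0.57 on 3 arrays (mean 1.43 ± 0.43) and lost its call without replicate 1 (0.89, adjusted p = 0.247), without replicate 3 (1.27, adjusted p = 0.0556), without either of the experiments and from 60 min alone (adjusted p = 0.0512).

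Cell wall genes went both ways. Of 33 tested 10 were higher and 7 lower (median -0.03, or 0.04 with arrays centred), shares of 30.3% and 21.2% that lie near the 21.2% and 24.6% of all tested genes. PIR3 gave 2.60, 2.58, 3.62 and 3.59 (8.56-fold), and with SPI1 and the glycoprotein YGP1 (2.86 ± 0.28) it was joined by PST1, a GPI protein raised by wall damage (2.66 ± 0.24), HSP150 (1.79 ± 0.18) and GSC2, the alternative glucan synthase (1.74 ± 0.35, not called without experiment B, adjusted p = 0.0549). The glucan-remodelling enzyme GAS1 gave -2.07, -2.40, -2.20 and -2.41 (mean -2.27 ± 0.25, 4.81-fold lower), close to PIR1. Of 14 calcineurin and calcium genes 6 (42.9%) were higher and 1 (7.14%) lower (median 0.34). The calcineurin regulator RCN2 stood at 2.22 ± 0.23, the kinase CMK2 at 1.34 ± 0.28 and the vacuolar calcium pump PMC1 at 1.29 ± 0.24 with 1.25, 1.65, 0.93 and 1.34 on the arrays, while CNA1, a catalytic subunit of calcineurin, was -1.03 ± 0.21. Without experiment A, CMK2 (adjusted p = 0.0567) and CNA1 (adjusted p = 0.0739) were not called, and CMK2 was not called without experiment B either (adjusted p = 0.0522).

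Metal genes gave few calls. Of 22 iron genes 3 were higher and 3 lower (median 0.09), 13.6% each way beside 21.2% and 24.6% of all tested genes. HMX1, the heme oxygenase that frees iron from heme, gave 3.86, 2.93, 4.02 and 3.88 (mean 3.67 ± 0.51, 12.8-fold, adjusted p = 0.00193), and TIS11, which speeds the decay of iron-dependent messages, stood at 1.86 ± 0.24. The siderophore transporter SIT1 (-2.82 ± 0.62) and the iron permease FTR1 with -2.21, -2.66, -3.02 and -2.37 (mean -2.56 ± 0.18) were lower; SIT1 was not called without experiment B (adjusted p = 0.0832). All 4 genes are known targets of the iron-responsive factor Aft1, and these 4 did not share a direction. They were named for their large ratios in a list of which 16 of 22 genes were not called. Whether Aft1 played a part was not tested. CCC2, a copper transporter called at 0.62 ± 0.18, was -0.34 in replicate 1 and 1.39 in replicate 2, and without replicate 2 it was 0.19 (adjusted p = 0.613). Of 10 genes of zinc, copper and manganese transport 3 were lower and none higher (median -0.45), 30.0% lower beside 24.6% of all tested genes. From 60 min alone 1 of the 10 was called lower, and without experiment B also 1. ZPS1, a zinc-regulated wall protein gene, gave -0.80, -2.16 and -4.32 on 3 arrays (mean -2.90 ± 0.57), and without replicate 4 it was -1.48. It was not called from 60 min alone (adjusted p = 0.0626).

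Nitrogen genes showed no common direction. Of 20 tested genes of ammonium use and nitrogen catabolism 5 were higher and 4 lower (median 0.03), and these shares of 25.0% and 20.0% are near those of all tested genes (21.2% and 24.6%). UGA1, which degrades GABA, gave 2.20, 2.07, 1.96 and 2.10 (mean 2.08 ± 0.17, 4.23-fold), and the glutamate dehydrogenase GDH2 (1.38 ± 0.38) and the glutamine synthetase GLN1 (1.20 ± 0.28) were higher, neither called without experiment B (adjusted p = 0.182 and 0.142). CHA1, a serine deaminase, gave -1.64, -2.17, -1.76 and -2.11 (mean -1.92 ± 0.22, 3.78-fold lower), and the biosynthetic glutamate dehydrogenase GDH1 stood at -1.35 ± 0.22 (not called with arrays scaled, adjusted p = 0.0539) beside 0.92 ± 0.39 (adjusted p = 0.0918) for its paralogue GDH3. Of 8 tested exporters of ammonium, amino acids and polyamines 2 were higher and 2 lower, 25.0% each way, which is also near the shares of all tested genes. The higher ones were the polyamine transporters TPO4 (2.05 ± 0.51) and TPO2 (1.04 ± 0.15). The lower ones were the amino acid exporter AQR1 (-1.68 ± 0.44) and the ammonium exporter ATO3 (-1.07 ± 0.22). TPO4 and AQR1 lost their calls when either experiment was left out: their adjusted p was 0.0663 and 0.0956 without A and 0.108 and 0.1 without B. ATO3 was not called without experiment B (adjusted p = 0.0869), and 1 of the 8, in the lower direction, was called with arrays scaled.

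Among 10 genes of serine and glycine metabolism 4 (40.0%) were higher and 1 (10.0%) lower (median 0.09). These shares stand beside 21.2% and 24.6% of all tested genes. With experiment B left out, 3 of the 10 were called higher. A large difference lay at the entry step. The phosphoglycerate dehydrogenases SER3 and SER33 gave 3.79, 3.99, 3.90 and 4.73 (mean 4.10 ± 0.26, 17.2-fold, adjusted p = 0.000259) and 2.95, 3.05, 3.37 and 3.24 (mean 3.15 ± 0.16, 8.89-fold). The hydroxymethyltransferase SHM2 (0.97 ± 0.17) and the transaminase SER1 (0.82 ± 0.21, not called without experiment A or B, adjusted p = 0.0559 and 0.134) were smaller. The threonine aldolase GLY1 was -1.03 ± 0.22 and was not called without experiment B (adjusted p = 0.109). In the rest of amino acid synthesis 12 of 41 tested genes were lower and 3 higher (median -0.18), which is 29.3% and 7.32% beside 24.6% and 21.2% of all tested genes. HIS4, a histidine enzyme, gave 2.22, 2.33, 2.68 and 2.14 (mean 2.34 ± 0.39) and the arginine enzyme ARG4 stood at 1.61 ± 0.25. The branched-chain enzymes ILV5 (-1.75 ± 0.40) and ILV1 (-1.64 ± 0.37) and the proline enzyme PRO1 (-1.44 ± 0.32) were lowest. Without experiment A ILV5 (adjusted p = 0.098) and PRO1 (adjusted p = 0.0656) were not called, and without B ILV1 (adjusted p = 0.12) and PRO1 (adjusted p = 0.0655) were not; without experiment B 2 of the 41 were called lower.

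Genes that the strain lacks gave no call. HIS3, deleted in part, gave 0.71, -0.06, 0.60 and 0.17 (mean 0.35 ± 0.34), and URA3 gave -1.19, -1.01, -0.27 and -0.32 (mean -0.70 ± 0.41), neither past the threshold (adjusted p = 0.42 and 0.198). LEU2 and MET17 had no value on any of the 4 arrays. ACT1, the actin gene often used as a reference, stood at -0.10 ± 0.18.

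Medians of single lists can be followed from array to array. The trehalose median was 2.71, 2.57, 2.20 and 2.75 in replicates 1 to 4, and the glycogen median 2.18, 2.39, 2.44 and 2.56. The glycolysis median was 0.42 in replicate 1 and 0.03 to 0.20 on the others, and the translation factor median was -0.67 in replicate 1 and between -1.02 and -0.85 on the others. For the ribosomal protein lists replicate 1 stood nearest to 0 as well.

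**Figure D5:**
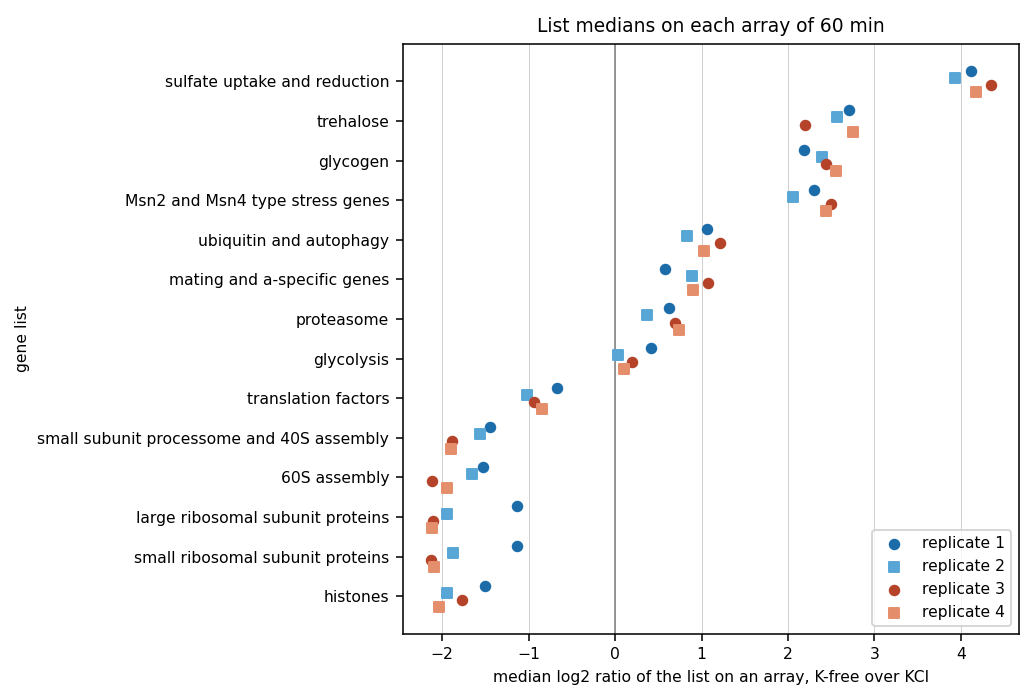
Median log2 ratio of K-free over KCl of 14 gene lists on each 60 min array (circles and squares, coloured by experiment). Each list lies on the same side of 0 on all 4 arrays, glycolysis nearest to it (0.03 to 0.42), and replicate 1 lies nearest to 0 for both ribosomal protein lists (-1.13 and -1.14).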

How the data were processed

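The authors deposited, for each gene and array, a log2 ratio between the dyes, and these values were used as they stand; the base and the direction are inferred. Per the labels' protocols, 8 µg of total RNA was labelled indirectly from an oligo(dT) primer, and small spots (below 120 µm across) and dim ones (below 100 units) were dropped. How background and dyes were corrected is not stated in the sources used here. No further normalization was applied. Names came from RefSeq assembly R64 (5644 identifiers matched exactly, 18 after changing case, 550 kept their identifier). Dye swaps were averaged to 9 experiment values over all times. limma 3.58.1 in R 4.3.3 fitted a mean per time (up to 4 residual and 3.19 prior degrees of freedom) and tested that of 60 min against 0, two-sided, with Benjamini-Hochberg adjustment over the 4127 genes with a value on at least 3 of the 4 arrays. The fit was tested on simulated data. The number of arrays limits the precision. Alternatives changed the pairing, the treatment of dye and experiment, the scaling, the filter, the samples fitted and the threshold.

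The comparison, its 53 gene lists and the rule for named genes were chosen with earlier results of these data known. The lists are thus no neutral survey: 60.6% of their tested genes were called, beside 40.8% of the other tested genes. Of the called genes, 642 were in a list and 1250 in none. The rule takes the 15 highest and 15 lowest genes, up to 5 genes of each list in its main direction, up to 2 in the other, and fixed transport and strain genes. After values had been seen, RPP1 (an RNase P subunit, -0.79, not called) and MRP8 (-0.10, not called) were removed from the ribosomal lists, which their symbols had matched, and the 24 gene pairs were chosen. A planned promoter motif search and protein comparison were not run, as no sequences were used here. Sample columns left unused numbered 0.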

Additional observations from a re-analysis of the deposited data

Results flagged for a closer look

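Across 322 named genes and list medians measured on all 4 arrays, 15 had a single array far from the other 3 by Dixon's 95% limit on the gap over the range; chance alone puts about 1 in 20 groups past that limit. Replicate 1 was the outlying array for 6, replicate 2 for 7, and replicates 3 and 4 for 1 each. RNR1 was 1.77 in replicate 4 and -3.902 to -3.023 on the others, the only one of the 15 whose outlying array changed sign. In replicate 1, HTB1 (-1.387), RPL42A (-1.468), RPL27B (-1.236) and RPE1 (-1.039) lay nearer to 0 than on the other arrays, as did TRR2 (1.079), while DOT6 (1.182) lay farther, with 0.188 to 0.317 on the others. In replicate 2, HMX1 (2.931) and GPP2 (0.579) were lowest, and ZRT3 (-0.928), GCD11 (-1.433) and GDH1 (-1.858) were farther below 0 than elsewhere. The median of the respiratory genes was 0.18 in replicate 2 and 0.56 to 0.61 on the others, and that of the exporters of ammonium, amino acids and polyamines was -0.56 beside -0.26 to -0.20. The median of all genes with a value was -0.237 in replicate 2, lower than on the other arrays; its part in these values was not tested. KAR4 was 2.372 in replicate 3 and 1.462 to 1.612 on the others.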

How the results depend on the processing

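The count of 1892 genes (876 higher, 1016 lower) fell to 1122 (526 and 596) with arrays scaled to the same spread, to 1118 (521 and 597) after quantile normalization, to 1198 (549 and 649) from the 60 min arrays alone, to 911 (437 and 474) without experiment B and to 1157 (520 and 637) at an adjusted p of 0.01. Of the 1892 genes, 1122, 1117, 1188 and 857 were called under the first 4 of these. Leaving out each array in turn gave 1759 to 1914 genes (798 to 885 higher, 874 to 1116 lower). The other pairing of arrays into experiments gave 2421 genes, 1862 of the 1892 among them. Deviations of the experiments at 60 min correlated with those of the same letter at 20, 40 and 120 min at -0.044, -0.038 and 0.418. The values for 20 and 40 min lay near 0, and that for 120 min did not. The main fit did not pair samples by letter. With the letter as a block (the replicate block) 1885 genes were called (870 higher). Each array as a replicate gave 2460 genes, with a dye term 2428. The dye term itself reached an adjusted p under 0.05 for 0 genes by limma, and an unadjusted p under 0.05 for 69. Centring gave 1900 genes (971 higher). Of 276 called genes named by the rule, 23 lost their call without 1 of the arrays, 89 without 1 of the experiments and 44 from 60 min alone. Scaled means of the 1892 genes were, at the median, 0.63 times the deposited ones. The hydrophilin median, 1.31, was -0.21 without experiment A, 0.21 without experiment B and 0.19 without replicate 2. SIP18 had no estimate in these fits, so each of these medians was taken over the other genes of the list. In the main fit 3 of its 7 genes were called higher and 3 lower. Dim spots were left out before deposit, and 898 genes of the table had no value on any 60 min array, so nothing can be said of them.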
